A study of Rattus norvegicus with 16 samples.

Results

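The immediate-early and AP-1 transcription factor genes of rat liver were examined in 16 RNA-seq libraries. The genes were chosen by symbol, as Fos, Fosb, Fosl2, Jun, Junb, Jund, Egr1, Myc, Ier2 and Ier3, and 9 of these 10 were among the 17055 genes counted by the authors. Fosb was not among them and is not analysed here. All 9 genes passed the limit on low counts in each comparison.

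Immediate-early genes are transcribed within minutes of a stimulus, without new protein synthesis, when kinase cascades act on factors already bound at their promoters. FOS proteins (Fos, Fosl2) pair with JUN proteins (Jun, Junb, Jund) to form AP-1, which binds the sequence TGACTCA and, with ATF partners, TGACGTCA. EGR1 is a zinc finger factor, MYC pairs with MAX to drive growth genes, IER2 is a nuclear protein, and IER3 modulates cell survival. In liver these genes are best known from the acute phase response, regeneration and stress.

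The libraries came from 48 male Sprague-Dawley rats aged 10 weeks, 12 per group, with the liver tissue of 3 rats pooled for each library. The groups were named Isoflurane-Sepsis (libraries 1 to 4), Isoflurane-Control (5 to 8), Propofol-Sepsis (9 to 12) and Propofol-Control (13 to 16). In all 16 libraries the liver was taken after 8 h of anesthesia that followed an opening of the abdomen (celiotomy). Septic rats had cecal ligation and puncture (CLP), whereas in controls the cecum was brought out and returned. Isoflurane rats received isoflurane for induction and maintenance. Propofol rats received ketamine and xylazine for induction and propofol for maintenance, so a comparison of the anesthetics is also one of the induction drugs. The file names carry a different series prefix for each anesthetic, and the 2 cannot be told apart. The spread between libraries is a spread between pools, not between single rats.

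Between 14199422 and 49937173 reads were counted on genes in each library, and values are given as CPM, the reads on a gene relative to all reads on genes of its library on edgeR's usual scale, after TMM scaling. The hepatocyte markers were abundant in every group, and all 10 were in the files. The summed level of 11 neutrophil and monocyte markers was 1261 to 2024 CPM in Isoflurane-Sepsis against 150.5 to 202 in its controls, and 1130.1 to 3305 CPM in Propofol-Sepsis against 389.7 to 651. Of these, Ly6g6d was at 0 in all libraries of Isoflurane-Sepsis. The part of these markers in the results below was not tested. In whole liver, fewer cells of a type and less RNA per cell cannot be told apart. Library 3, of Isoflurane-Sepsis, stood apart from its group for these genes, as it lay above the mean of its other 3 libraries for 9 of the 9 genes and more than 2-fold above for 5 of them. It also had the largest share of reads outside genes (25.4%, against a minimum of 21.6% over the 16 libraries). Most member results that rest on library 3 are given with and without it, or with their range over single libraries left out.

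The plot of CPM by library shows the level of every gene in every library.

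**Figure D1:**
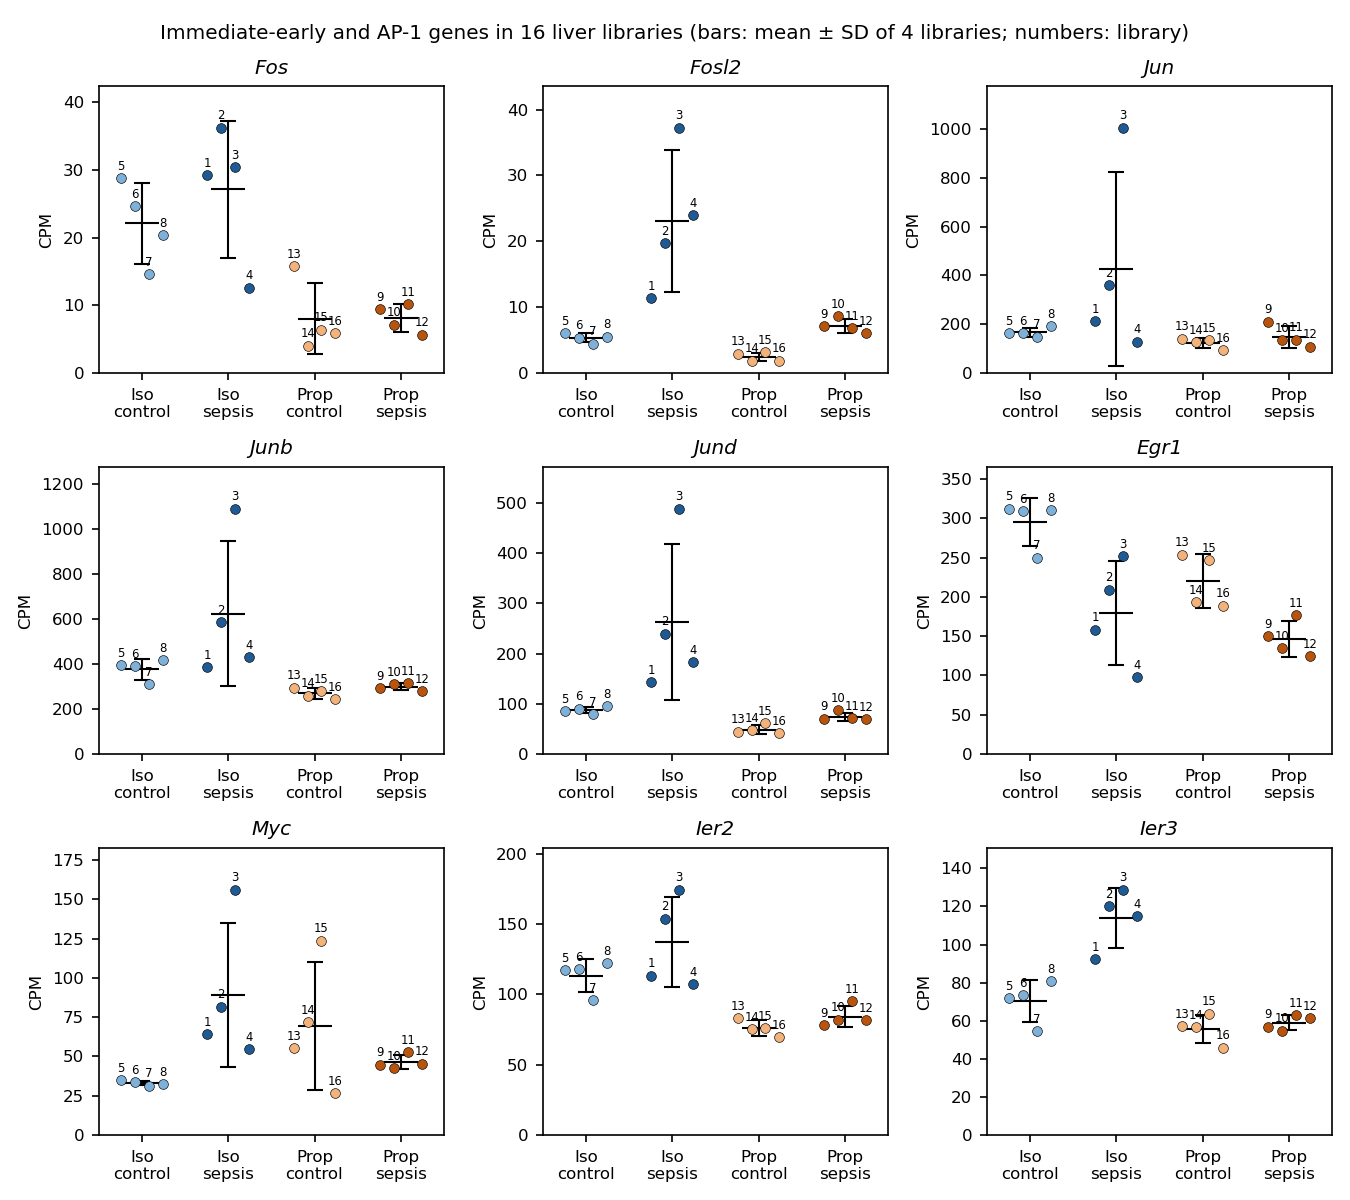
CPM (y axis, linear, from 0) of the 9 genes in 16 libraries, by group on the x axis; each point is 1 library with its number, and the bars give the mean ± SD of 4 libraries. Library 3 is the highest Isoflurane-Sepsis point for 8 genes, with Fos as the exception.

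Of the 9 genes, 5 had an entry in the table of promoters (RefSeq, assembly GRCr8), which is a later build than the rn5 genome of the deposited counts. The 250 bases before the annotated start are shown for Fosl2 and Jund, which rose with sepsis under both anesthetics, and for Ier2, which passed the test in neither. They lie at chr6:30039270-30039519 (minus strand), chr16:18769772-18770021 (minus strand) and chr19:40399123-40399372 (plus strand), and are written 5′ to 3′ along the gene with motif matches in capitals.
Fosl2: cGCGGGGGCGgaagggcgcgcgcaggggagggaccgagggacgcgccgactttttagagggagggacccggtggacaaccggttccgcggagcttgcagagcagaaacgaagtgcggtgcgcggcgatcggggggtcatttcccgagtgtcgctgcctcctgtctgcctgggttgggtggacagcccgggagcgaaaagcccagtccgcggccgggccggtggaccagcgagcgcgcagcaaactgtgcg
Jund: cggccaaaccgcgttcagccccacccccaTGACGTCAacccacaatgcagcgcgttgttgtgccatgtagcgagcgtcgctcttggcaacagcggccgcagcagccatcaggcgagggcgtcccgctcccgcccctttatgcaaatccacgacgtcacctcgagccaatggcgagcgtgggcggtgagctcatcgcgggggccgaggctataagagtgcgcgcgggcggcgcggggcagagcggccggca
Ier2: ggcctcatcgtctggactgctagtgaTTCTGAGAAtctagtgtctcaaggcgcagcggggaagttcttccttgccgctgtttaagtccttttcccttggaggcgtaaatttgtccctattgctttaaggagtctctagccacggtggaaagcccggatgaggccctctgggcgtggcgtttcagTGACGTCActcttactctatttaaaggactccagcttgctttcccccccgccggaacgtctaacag

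On both strands, the motifs searched were the cAMP response element TGACGTCA, the AP-1 element TGACTCA, the EGR element GCGGGGGCG, the E-box CACGTG, the STAT element TTCNNNGAA, the CArG box and TATAAA. The cAMP response element stood 221 bases before the start of Jund (from -221 to -214) and 66 bases before that of Ier2 (from -66 to -59), and 1.83% of 33469 promoters of 300 bases held it. The EGR element stood at -249 to -241 of Fosl2 and is in 2.73% of all promoters. The STAT element at -224 to -216 of Ier2 is in 8.87%. In Egr1, 2 CArG boxes were found, a motif bound by serum response factor and present in 1.64% of promoters, and Junb had TATAAA (14.2% of promoters) at -49. The AP-1 element (4.63% of promoters) and the E-box (6.42%) were not in any of the 5 windows. These matches describe letters and not binding.

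The first comparison asked which of these genes differed with sepsis under isoflurane. Fosl2, Jund, Myc and Ier3 rose, with every septic library above every control library, and Egr1 fell. Called genes are those with a Benjamini-Hochberg adjusted p below 0.05 by the quasi-likelihood test of edgeR, and 5 of the 9 were called, where 50.0% of all 10361 genes tested were called. Rises were 4 of 9 against 25.7% of all genes, and falls 1 of 9 against 24.4%. The groups did not overlap for 4 of 9, against 48.8% of all genes. The median log2 fold change of the 9 genes was 0.75, beside 0.01 over all genes tested.

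Among the FOS family, Fosl2, which encodes the FOS-related protein FRA2, read 11.4, 19.7, 37.2 and 23.9 CPM in libraries 1 to 4 of Isoflurane-Sepsis and 6.07, 5.36, 4.44 and 5.50 in the controls. The septic and control libraries did not overlap. The rise was 4.38-fold (log2 2.13, SE 0.325, edgeR adjusted p = 0.000942), and without library 3 it was 3.45-fold (log2 1.79, adjusted p = 0.000952). Fos, the founding member of the family, read 29.2, 36.3, 30.5 and 12.6 CPM in septic libraries and 28.8, 24.7, 14.6 and 20.4 in controls. The groups overlapped, with library 4 the lowest of all 8, and the log2 difference of 0.31 (95% interval -0.38 to 1.00, edgeR adjusted p = 0.423) was not called.

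In the JUN family, Jund, whose protein is usually the steadily expressed partner of AP-1, read 144, 239.9, 489 and 183 CPM with sepsis against 85.6, 90.0, 79.6 and 94.9 in controls. Every septic library was above every control. The rise was 3.06-fold (log2 1.61, SE 0.345, edgeR adjusted p = 0.00477) and 2.17-fold without library 3 (log2 1.12, adjusted p = 0.00113). Jun, the classical partner of FOS, read 213, 361, 1005 and 129 CPM with sepsis against 165, 163, 149 and 192. Library 3 was far above the other 3, and library 4 was below all controls. The log2 difference of 1.38 (SE 0.546) did not pass (edgeR adjusted p = 0.0613), and it was 0.49 without library 3 (adjusted p = 0.186). Junb, which can restrain JUN, read 387, 587, 1091 and 432 CPM against 394, 389, 310.3 and 417. Library 3 was again the highest, library 1 lay among the controls, and the log2 difference of 0.75 was not called (edgeR adjusted p = 0.0672), nor was the 0.32 found without library 3 (adjusted p = 0.122). Both Jun and Junb were called higher when library 1 or library 4 was left out (adjusted p between 0.0149 and 0.0406), so their calls depended on which pools were included. In 1 fit of all 16 libraries Jun (adjusted p = 0.0158) and Junb (0.0139) were called, as was Junb with DESeq2 (0.0301).

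Myc read 64.2, 81.7, 156 and 54.5 CPM in septic libraries and 34.8, 33.8, 31.5 and 32.5 in controls. The controls were within 1.10-fold of each other and all lay below the septic libraries. The rise was 2.73-fold (log2 1.45, SE 0.300, edgeR adjusted p = 0.00411), and 2.03-fold without library 3 (log2 1.02, adjusted p = 0.000588). Ier3, an early target of NF-κB and of growth factors, read 92.2, 120.3, 129 and 115 CPM against 71.7, 73.5, 54.7 and 80.7. The groups did not overlap, and here library 3 was only slightly above the rest. The rise was 1.65-fold (log2 0.72, SE 0.142, edgeR adjusted p = 0.00324), and 1.57-fold without library 3.

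Egr1 was the exception in direction. It read 158, 209, 252 and 97.5 CPM with sepsis and 312, 309, 249.7 and 310.1 in controls. Library 3, the highest septic library, exceeded library 7, the lowest control, so the groups overlapped. The fall was 1.63-fold (log2 -0.70, SE 0.249, edgeR adjusted p = 0.0408). The call was lost when library 1, 2, 5, 6, 7 or 8 was left out (adjusted p between 0.0519 and 0.0873), while without library 3 the log2 fold change was -0.93 (adjusted p = 0.0110). Ier2 read 113, 154, 174 and 107 CPM against 117, 118, 96.1 and 122, with overlapping groups and no call (log2 0.29, edgeR adjusted p = 0.161).

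The same question under propofol gave 3 called genes of 9, where 42.1% of 10348 genes tested were called. Fosl2 and Jund rose (2 of 9, against 20.4% of all genes) and Egr1 fell (1 of 9, against 21.7%), each with no overlap between the groups (41.6% of all genes had none). The median log2 fold change of the 9 genes was 0.15, beside -0.00 over all genes tested. For Fosl2 the septic libraries 9 to 12 read 7.15, 8.67, 6.78 and 6.05 CPM and the controls 2.92, 1.87, 3.12 and 1.88, with no overlap. This was a 2.94-fold rise (log2 1.55, SE 0.205, edgeR adjusted p = 0.000372) from the lowest read numbers of the set, 32 to 65 reads per control library. Jund read 70.3, 86.8, 71.4 and 69.0 CPM against 44.8, 47.8, 60.9 and 41.4. The groups did not overlap and the rise was 1.53-fold (log2 0.61, SE 0.127, edgeR adjusted p = 0.00385). The Jund call was lost when all 16 libraries shared 1 estimate of spread (adjusted p = 0.0814). Egr1 read 149.6, 135, 177 and 124 CPM against 254, 193, 247 and 189. All 4 septic libraries were below all controls, and the fall was 1.51-fold (log2 -0.59, SE 0.129, edgeR adjusted p = 0.00525).

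The other 6 genes overlapped between septic and control libraries under propofol and were not called. Fos read 9.42, 7.15, 10.2 and 5.65 CPM with sepsis and 15.8, 4.03, 6.42 and 5.89 in controls. Library 13 alone stood high among the controls, and the log2 difference was 0.02 with it (95% interval -0.82 to 0.86) and 0.56 without it (edgeR adjusted p = 0.0931). Jun read 211, 135, 137 and 108 CPM with sepsis and 141, 126, 136 and 94.2 in controls. Junb was at 299.8 ± 16.6 CPM (SD, n = 4) with sepsis and 269.7 ± 22.8 in controls, Ier2 at 84.2 ± 7.65 and 75.9 ± 5.51, and Ier3 at 59.0 ± 3.81 and 55.8 ± 7.41. For Junb, Ier2 and Ier3 the interval of the log2 difference reached at most 0.33, so any rise of these genes under propofol larger than that lay outside the 95% interval.

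Myc had the widest ratio of highest to lowest control under propofol. The Propofol-Control libraries 13 to 16 read 55.1, 71.8, 124 and 26.6 CPM, a range of 4.66-fold against 3.93-fold for Fos, whereas the septic libraries read 44.7, 42.4, 52.7 and 45.4. The septic values lay inside the range of the controls. The log2 difference was -0.58 (SE 0.355, edgeR adjusted p = 0.213), it was -0.14 without library 15, and without library 16 Myc was called lower (log2 -0.85, adjusted p = 0.0206). Library 15 was 1.39 on the log2 scale above the mean of the other 3 controls, which ranked 19th among 8893 genes in that library.

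**Figure D2:**
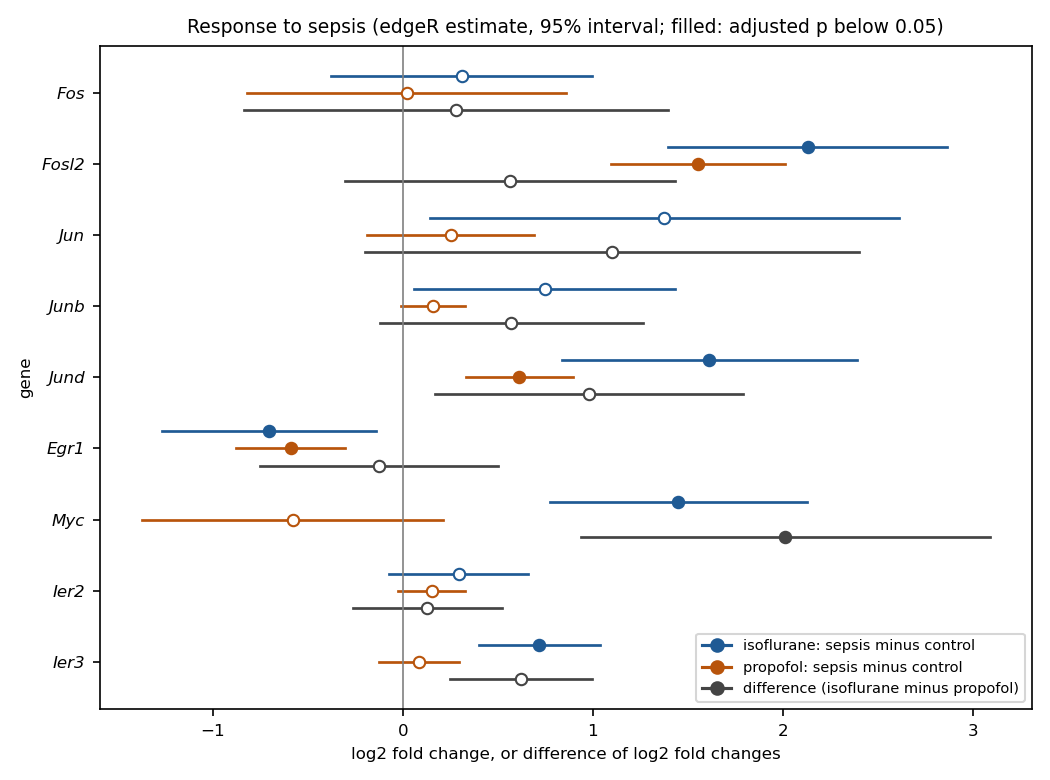
Log2 fold change of sepsis against control (x axis) of each of the 9 genes (y axis) under isoflurane and under propofol, and the difference of the 2, each with its 95% interval; filled points have an edgeR adjusted p below 0.05. Fosl2 and Jund lie to the right and Egr1 to the left of 0 under both anesthetics, and Myc is the only gene whose difference is filled.

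Whether the response to sepsis differed between the anesthetics was tested as an interaction of all 16 libraries, in which a positive value means a larger rise under isoflurane. Myc was called (1 of 9, where 2.72% of 10621 genes tested were called), with a difference of 2.01 on the log2 scale (SE 0.506, 95% interval 0.94 to 3.09, edgeR adjusted p = 0.0473). It was 1.60 without library 3 (adjusted p = 0.0846) and 1.57 without library 15 (adjusted p = 0.0917). The call was lost without any single library other than 1, 4 or 16 and under 4 of the other choices (limma-voom, no limit on low counts, thinned counts and a threshold of 0.01), while the difference stayed between 1.57 and 2.28 with each library left out in turn. Ier3 had a difference of 0.62 (95% interval 0.25 to 1.00, edgeR adjusted p = 0.0652) and Jund of 0.98 (0.17 to 1.79, adjusted p = 0.143), and neither was called. Ier3 was called with DESeq2 (adjusted p = 0.0213) and without library 1 or 16, and Jund without library 1 (adjusted p = 0.0266). Without library 3 the Jund difference was 0.50. For Jun the difference was 1.10 (-0.20 to 2.40, edgeR adjusted p = 0.288) and was 0.24 without library 3, and for Junb it was 0.57 (-0.12 to 1.26, adjusted p = 0.298) and was 0.16 without it. Fosl2 differed by 0.56 (-0.31 to 1.43, and 0.24 without library 3), Fos by 0.28 (-0.83 to 1.40), Ier2 by 0.13 (-0.26 to 0.52) and Egr1 by -0.13 (-0.75 to 0.50). Differences between the responses that lie within these intervals were not excluded.

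The anesthetics were then compared within the control rats, which had the same celiotomy without CLP. All 9 genes were called, where 43.3% of 10314 genes tested were called. Higher levels under isoflurane were found for 8 of them (21.6% of all genes) and a lower level for Myc (21.7% of all genes). Fos differed most, with 28.8, 24.7, 14.6 and 20.4 CPM under isoflurane against 15.8, 4.03, 6.42 and 5.89 under propofol. Library 7 of isoflurane lay below library 13 of propofol, and the other libraries did not cross. The difference was 2.81-fold (log2 1.49, SE 0.342, edgeR adjusted p = 0.00534), and 4.02-fold without library 13. Fosl2 was 2.20-fold higher (log2 1.14, SE 0.175, adjusted p = 0.000537), Jund 1.80-fold, Ier2 1.50-fold, Junb 1.41-fold and Jun 1.35-fold. For these 5 genes every isoflurane control was above every propofol control, and 40.3% of all genes tested had no overlap in either direction. Egr1 (1.34-fold) and Ier3 (1.26-fold) were higher with overlapping libraries, and adjusted p over the 8 genes lay between 0.000149 and 0.0420.

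For Myc the isoflurane controls, at 31.5 to 34.8 CPM, were below 3 of the propofol controls and above library 16. The log2 difference was -1.06 (SE 0.340, edgeR adjusted p = 0.0270). Without library 15 it was -0.62 and no longer called (adjusted p = 0.0604), and leaving out library 5, 6, 7, 8 or 14 also ended the call. The call of Ier3 ended without library 5, 6, 8, 13, 14 or 16 (adjusted p up to 0.124). Scaling by library totals alone moved the median of all genes by -0.15 on the log2 scale in this comparison, and Jun, Egr1 and Ier3 then lost their calls, although their log2 differences stayed above 0 (0.29, 0.28 and 0.19). With that scaling 22.9% of the called genes were higher under isoflurane, against 49.8% with TMM. When all 16 libraries shared 1 estimate of spread 5 genes were called, Fos, Fosl2, Jund, Myc and Ier2. The summed hepatocyte markers were also higher in isoflurane controls (134585 to 144865 CPM) than in propofol controls (98153 to 106729), and the neutrophil and monocyte markers lower; their part in these differences was not tested.

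In septic rats, 6 of the 9 genes were called higher under isoflurane and all 9 estimates were above 0, where 19.3% of 10272 genes tested were called (10.6% higher, 8.66% lower). With library totals alone 21.4% of the called genes were higher under isoflurane, against 55.1% with TMM, and the same number of members, 6, was called. The isoflurane libraries of Fosl2 (11.4 to 37.2 CPM) were above those of propofol (6.05 to 8.67), a difference of 3.23-fold (log2 1.69, SE 0.320, edgeR adjusted p = 0.0148). With single libraries left out this log2 difference ranged from 1.37 to 1.92. Jund was 3.55-fold higher (log2 1.83, SE 0.345, adjusted p = 0.0148) and 2.55-fold higher without library 3. Fos was 3.37-fold higher, at 12.6 to 36.3 CPM against 5.65 to 10.2, and did not overlap (edgeR adjusted p = 0.0128). Junb, Ier3 and Ier2 were 2.09-fold, 1.94-fold and 1.64-fold higher (adjusted p between 0.00364 and 0.0369). The log2 difference of Junb was 1.06, and it ranged from 0.65 to 1.23 with single libraries left out. Jun (log2 1.53, edgeR adjusted p = 0.0810), Myc (0.95, adjusted p = 0.0504) and Egr1 (0.30, adjusted p = 0.409) were not called. Without library 3 the Jun difference was 0.67, and the Myc difference, then 0.54, was called (adjusted p = 0.0494). Both genes were called in 1 fit of all 16 libraries (adjusted p = 0.0132 for Jun and 0.0453 for Myc), and Myc with DESeq2 (0.00973). In all, 7 genes had no overlap between the anesthetics in septic liver, Myc among them, where 25.1% of all genes tested had none. Only Fos and Ier3 of the 9 remained called when library 9, 11 or 12 was left out, with adjusted p for Fosl2 and Jund between 0.0538 and 0.0601. The call of Junb was also lost without library 2 or 10. The comparisons of septic and of control rats use different libraries, but each shares its libraries with the sepsis comparisons above.

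**Figure D3:**
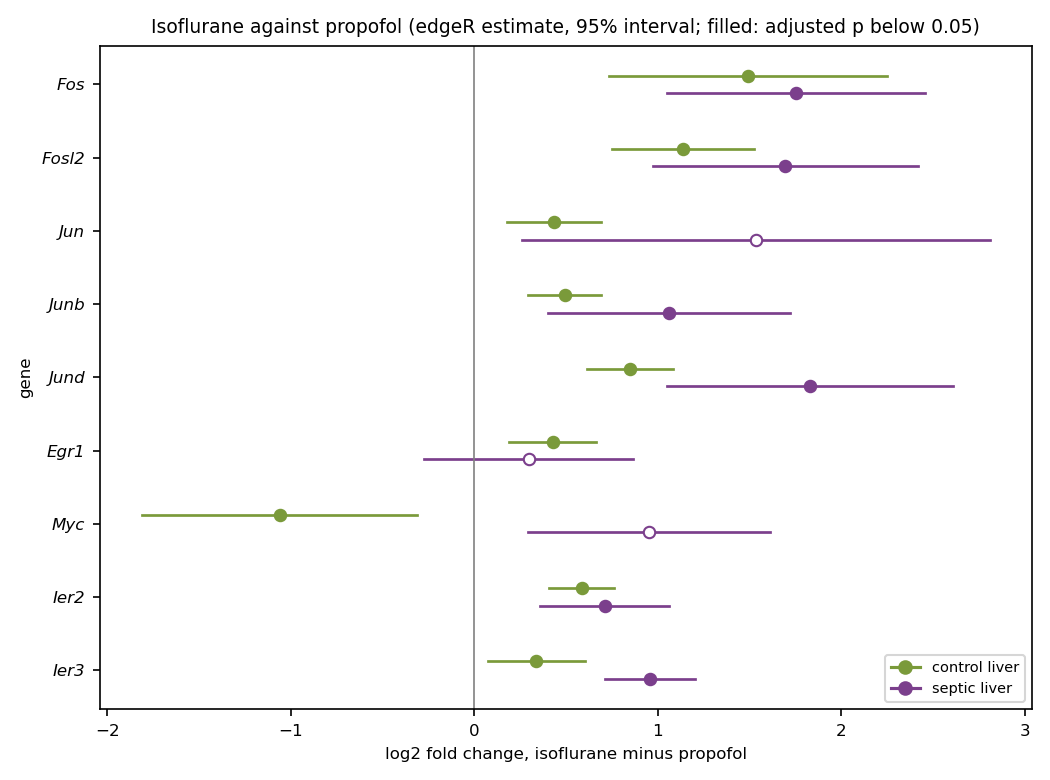
Log2 fold change of isoflurane against propofol (x axis) of each of the 9 genes (y axis) in control and in septic liver, with 95% intervals; filled points have an edgeR adjusted p below 0.05. All points lie to the right of 0 except Myc in control liver, at -1.06.

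Across the 4 groups the mean was lowest in Propofol-Control and highest in Isoflurane-Sepsis for 7 of the 9 genes, with Egr1 and Myc as the exceptions. Fosl2 ran from 2.45 ± 0.664 CPM (SD, n = 4) in Propofol-Control through 5.34 ± 0.679 in Isoflurane-Control and 7.16 ± 1.10 in Propofol-Sepsis to 23.1 ± 10.8 in Isoflurane-Sepsis. Jund stood at 48.7 ± 8.51, 87.5 ± 6.53, 74.3 ± 8.34 and 264 ± 155 CPM in the same groups. In both genes the libraries of Isoflurane-Control and Propofol-Sepsis overlapped, and the other neighbours in order did not. Egr1 was ordered differently from these, at 295 ± 30.5 CPM in Isoflurane-Control, 221 ± 34.3 in Propofol-Control, 179 ± 66.5 in Isoflurane-Sepsis and 146 ± 22.7 in Propofol-Sepsis, and libraries of each neighbouring pair overlapped.

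The libraries within a group moved together for several of these genes. Library 3 was above the mean of its other 3 libraries by 2.23 on the log2 scale for Jun (rank 19 of 8893 genes in that library), by 1.41 for Jund and by 1.24 for both Junb and Myc. Library 4 was below the mean of its other 3 libraries for 7 of 9 genes, with Fosl2 and Ier3 as the exceptions. Library 1 was below for 8 of 9, and libraries 7 and 16 were below for 9 of 9. For libraries 1 and 4 that mean includes library 3, so their counts are not independent of it. In library 3, 2.83% of all 8893 genes lay more than 2-fold from the other 3 libraries, and in library 4 it was 4.93%, so library 3 was not the farthest from its group over all genes. After each group mean was taken out, Pearson's r over the 16 libraries lay between 0.150 (Fos and Jund) and 0.936 (Junb and Jund), and between 0.047 (Fos and Jund) and 0.906 (Junb and Ier2) without library 3. These r values are descriptions, and the genes of a pair were read in the same libraries.

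**Figure D4:**
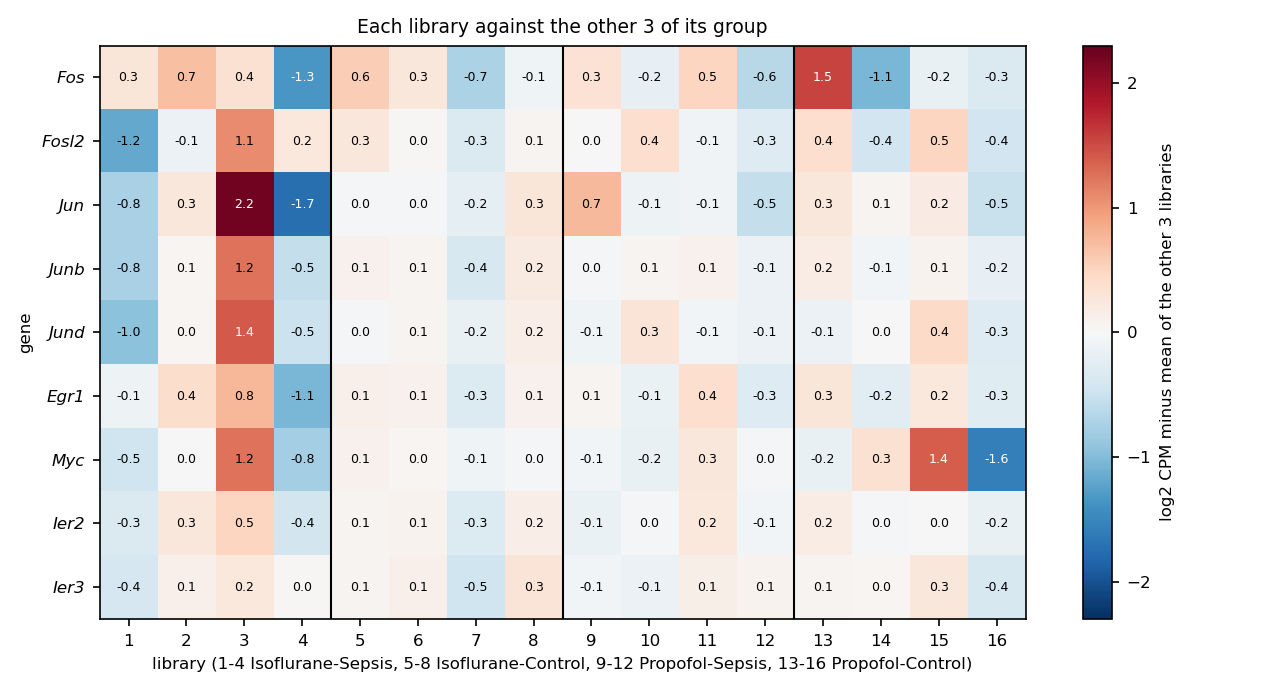
Log2 CPM of each gene (rows) in each library (columns) minus the mean of the other 3 libraries of its group, as colour and printed value; black lines part the groups. Library 3 is above 0 in every row and libraries 7 and 16 are below 0 in every row, and Jun in library 3 (2.2) and Myc in libraries 15 (1.4) and 16 (-1.6) are among the strongest cells.

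Genes whose log2 CPM followed a member most closely over the 16 libraries were taken from 8893 genes, with group means included, and the r values are descriptions. For Fosl2 they were Ptpn23 (r = 0.989), Samd4b (0.987) and Pnrc1 (0.985). For Jund they were Zfp36l1 (0.987), which encodes an mRNA decay factor, Dusp8 (0.982), a MAP kinase phosphatase, and Klf6 (0.982), a zinc finger factor. Egr1 was followed most closely by Acy3 (0.920), Tpmt (0.895) and Ugt1a1 (0.893), enzymes of drug and conjugate metabolism. Myc was followed by Nup153 (0.944), Jun by P4ha2 (0.941), Junb by Tsc22d2 (0.957), Ier2 by Appl2 (0.939), Ier3 by Tnip2 (0.959), which encodes an NF-κB inhibitor, and Fos by RGD1306941 (0.895) and by Ier2 itself (0.881).

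The rest of the AP-1 family was listed as 14 genes, and 12 were in the files. Under isoflurane 10 were tested, and 7 rose and 1 fell, where 25.7% and 24.4% of all genes did. Atf3, a stress-induced partner of JUN, rose by 3.74 on the log2 scale (SE 0.848, edgeR adjusted p = 0.00633), from 16.4 ± 3.95 to 215 ± 268 CPM, and by 2.36 without library 3. Fosl1, which encodes FRA1, rose by 4.11 (edgeR adjusted p = 0.00730) at low levels, 3.44 ± 4.00 CPM with sepsis and 0.191 ± 0.156 without. Without library 4 the Fosl1 rise was 2.91. Maff (2.77, and 1.94 without library 3), Jdp2 (1.24), Mafg (1.11), Mafk (0.79) and Atf2 (0.36) also rose and Maf fell (-0.37). Under propofol 11 were tested, with 6 rises and 1 fall, against 20.4% and 21.7% of all genes, and 4 were called without library 16. Fosl1 rose by 4.20 (edgeR adjusted p = 0.00242, and by 5.56 without library 15), Batf, an AP-1 factor of leukocytes, by 2.45 from 0.201 to 1.13 CPM, and Jdp2 by 0.81. Fosl1 under both anesthetics and Batf under propofol passed the limit on low counts only through their septic libraries. Only a rise could thus be called for them, and they are among the rises counted here. Atf3 rose by 1.12 (edgeR adjusted p = 0.0434), and the call was lost when library 9, 11, 13, 14, 15 or 16 was left out (adjusted p between 0.0533 and 0.112). Maff was not called there (log2 0.48). Under isoflurane Batf was too low to be tested, at 0.653 CPM with sepsis (0.446 to 1.12) and 0.158 in controls (0.0942 to 0.252). In the interaction Mafg alone of this list was called, with a difference of 0.79 (edgeR adjusted p = 0.0220, and 0.0514 without library 12), while Atf3 (2.59, adjusted p = 0.128) and Maff (2.26, adjusted p = 0.139) were not. The list's median log2 fold change was 0.95 under isoflurane and 0.48 under propofol, beside 0.01 and -0.00 over all genes tested.

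Of 22 other immediate-early genes all were in the files and 18 were tested in each sepsis comparison. Under isoflurane 11 rose and 1 fell, with a median of 1.00, and under propofol 13 rose and 2 fell, with a median of 0.77. Over all genes 25.7% rose and 24.4% fell under isoflurane, and 20.4% and 21.7% under propofol. The NR4A orphan nuclear receptors were among the largest. Nr4a1 rose by 2.52 under isoflurane (edgeR adjusted p = 0.00119) and by 3.11 under propofol (adjusted p = 0.000240), from 18.1 to 103 CPM and from 1.80 to 15.7 CPM. Nr4a3 rose by 3.00 and 2.19, and Nr4a2 by 2.97 (2.27 without library 4) and 0.76, with an interaction of 2.21 for Nr4a2 that was not called (edgeR adjusted p = 0.0523). Under propofol Nr4a3 passed the limit on low counts only through its septic libraries, so only a rise could be called. Phlda1 (2.00 and 1.62), Btg2 (1.82 and 1.73), the matricellular genes Cyr61 (1.98 and 0.98) and Ctgf (1.14 and 0.77), Klf6 (1.88 and 1.09) and Zfp36l1 (1.82 and 0.42) rose under both anesthetics. Klf10, a TGF-β-inducible factor, fell under both (-1.39 and -1.40), and Egr2, a relative of Egr1, was not called under either (-0.19 and 0.18). Zfp36, a relative of Zfp36l1, fell under propofol, from 236 to 166 CPM. Under isoflurane it was not called, at 306 ± 188 CPM with sepsis and 298 ± 19.0 in controls. Egr3 and Egr4, also listed, were too low to be tested. Sgk1, a glucocorticoid-inducible kinase, was at -0.61 under isoflurane, which was not called, and rose by 1.01 under propofol. Its interaction of -1.63 was called (edgeR adjusted p = 0.0403) but not when any of 10 single libraries was left out (adjusted p between 0.0599 and 0.0862).

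**Figure D5:**
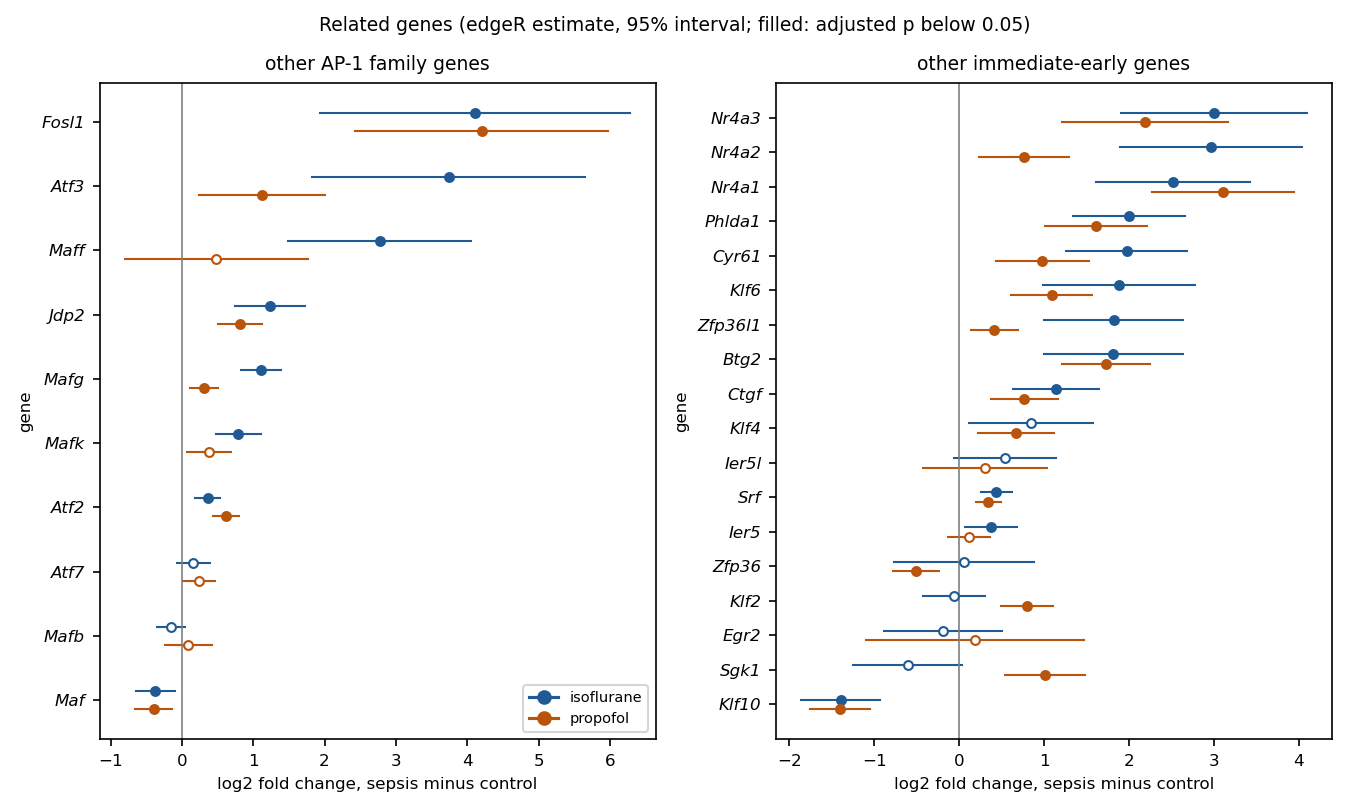
Log2 fold change of sepsis against control (x axis) of the tested AP-1 and immediate-early genes outside the main set (y axis), under isoflurane and propofol, with 95% intervals; filled points have an edgeR adjusted p below 0.05. Most filled points lie to the right of 0, while Maf and Klf10 lie to the left under both anesthetics.

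The kinases and factors that act on these promoters were listed as 22 genes, 20 of them in the files. Under isoflurane 7 of 18 tested rose and 1 fell (median 0.22), and under propofol 4 of 19 rose and 2 fell (median 0.02). These 8 and 6 calls compare with 50.0% and 42.1% of all genes, and with single libraries left out they ranged from 4 (without library 8) to 11 and from 3 (without library 11, 14 or 16) to 6. Crem, a cAMP-responsive factor, rose by 1.04 and 1.11, and Rps6ka3, which encodes the kinase RSK2, by 1.20 and 0.82. Mapk9, the JNK2 gene, rose by 0.82 and 0.47, while Creb1 (-0.06 and 0.34) was not called. Map2k6 fell by 1.29 under propofol at 0.310 against 0.762 CPM (edgeR adjusted p = 0.0319), a call lost without any of 6 single libraries. Under isoflurane it was too low to be tested, at 0.223 CPM with sepsis and 0.644 in controls.

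Among the partners and antagonists of MYC, 9 of 12 listed genes were in the files and 7 were tested. Max, the obligate partner, rose by 0.44 under isoflurane and 0.43 under propofol, and Mxd1, which competes with MYC for MAX, rose by 0.95 and 1.16. Mlxipl, the carbohydrate response factor, fell by 0.47 and 0.96. In all 2 rose and 2 fell under isoflurane, and 3 rose and 2 fell under propofol, where 50.0% and 42.1% of all genes were called. The isoflurane count of 4 was 2 without library 2, 4, 7 or 8. Those calls were 2 rises and 0 falls, so the isoflurane call of Mlxipl was lost in each. Of the 5 measured negative regulators of EGR and AP-1 proteins, Nab1, a corepressor of EGR1, rose by 0.30 and 0.47, and Dcaf8 fell by 0.25 and 0.23.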

How the data were processed

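Per the labels, 16 liver libraries were grouped by anesthetic and by sepsis or control. The authors deposited raw counts, the whole number of reads on each of 17055 gene symbols. The submitters' processing notes name STAR and rn5, and no counting program, strand setting or annotation was given in the sources used here. Entries for reads outside genes (21.6% to 25.4%) and ambiguous reads (1.07% to 1.35%) were left out of library sizes.

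Counts were tested with edgeR 4.0.16 (limma 3.58.1, R 4.3.3) by its quasi-likelihood test with TMM scaling and filterByExpr (minimum count 10, minimum total 15), 4 libraries against 4, or over all 16 libraries for the interaction. P-values were adjusted over all genes tested by the method of Benjamini and Hochberg, and an SE is the log2 fold change divided by the square root of F. The scripts were tested on simulated data. Pairs of libraries of a group differed beyond sampling noise (chi-square per degree of freedom at least 3.35). Alternatives were RLE factors, library totals, DESeq2 1.42.0, limma-voom, other limits on low counts, thinning, 1 fit of all libraries, a threshold of 0.01, and each library left out.

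The members, gene lists and comparisons were chosen with earlier results of these data known. List genes are named where called with a log2 fold change beyond 1 in a sepsis comparison or called in the interaction, and the 3 genes of highest r were listed per member. Other list genes were named after their values were seen. No list was tested as a set. A few list genes are not reported here by name.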

Additional observations from a re-analysis of the deposited data

Results flagged for a closer look

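Each group of 4 libraries was screened for a library far from the rest by Dixon's criterion, which chance meets in about 1 in 20 groups, and 2 of 36 were flagged. Jund in library 10 of Propofol-Sepsis, at 86.8 CPM, was far above the other 3 (69.0 to 71.4 CPM). Egr1 in library 7 of Isoflurane-Control, at 249.7 CPM, was far below the other 3 (309 to 312 CPM), and library 7 was the lowest of its group for all 9 genes. The response of Myc to sepsis differed between the anesthetics by 2.01 on the log2 scale, by the interaction test of edgeR. No explanation of these values was tested.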

How the results depend on the processing

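The calls of Fosl2, Jund, Myc and Ier3 under isoflurane, and of Fosl2 and Egr1 under propofol, remained under all alternatives run. With each library left out, 4 to 7 genes were called under isoflurane, 3 to 4 under propofol, 0 to 3 in the interaction, 7 to 8 between anesthetics in control liver and 2 to 8 in septic liver. In the interaction 2 genes were called with DESeq2 (Myc and Ier3) and 0 with limma-voom, with no limit on low counts, with thinned counts and at an adjusted p below 0.01. In control liver 5 were called when all 16 libraries shared 1 fit, and in septic liver 1 at an adjusted p below 0.01. Fos under propofol turned to -0.042 with library totals and ranged from -0.20 to 0.56 with each library left out. In the interaction Fos ranged from -0.25 to 0.51, Ier2 from -0.0049 to 0.22 and Egr1 from -0.33 to 0.072. None of these 4 values was called. The cause was not tested. Counted once for each gene, comparison and alternative, a call was lost 22 times and gained 7 times under another processing, and lost 45 times and gained 12 times with a library left out. Library totals moved the median of all genes by -0.15 on the log2 scale between the anesthetics and by less than 0.1 with sepsis, where the rising share of called genes was 43.0% under isoflurane and 38.3% under propofol, against 51.3% and 48.4% with TMM. No paired analysis was possible because the library numbers are not shared between groups.

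With 4 pools per group, of which a single one could differ several-fold, the call of Jun under isoflurane (log2 1.38, SE 0.546) depended on the pools and fit used. Pooled tissue hides the spread between rats, and the p-values set each difference against the spread between pools. Anesthetic, induction drugs and file series cannot be told apart. Fosl2 rested on 32 to 720 reads per library, and Fosl1, Batf and Map2k6 on about 1 CPM or less in some groups, so their fold changes are less precise.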
